A study of Homo sapiens with 15 samples.

Results

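The zinc-dependent histone deacetylases HDAC1 to HDAC10 were examined in 3 human acute myeloid leukemia (AML) lines with and without knockdown of RNF5, a membrane-anchored ubiquitin ligase. The rows of the members were found by gene symbol, and the 10 symbols matched 10 of the 57820 gene identifiers measured, 1 each. The 15 RNA-seq libraries came from MOLM-13 cells (an AML line of monocytic character), U937 cells (a monocytic line) and HL-60 cells (a promyelocytic line), each transduced either with pLKO, the vector without a hairpin, or with shRNF5, a short hairpin RNA against RNF5. There were 3 libraries of each construct in HL-60, 2 of each in U937, and 3 with pLKO and 2 with shRNF5 in MOLM-13. The hairpin that was sequenced is not named, the replicates are not stated to be separate transductions, and the p-values therefore measure the spread between libraries, which may be technical. The sample labels place the RNA harvest 7 days after knockdown and the series design 5 days after it. The library kit also differs between sources, a 3′-end kit in the labels and a directional poly(A) kit in the study's methods.

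Histone deacetylases remove acetyl groups from lysines of histones and other proteins, and on chromatin they generally act with repression of transcription. Class I enzymes (HDAC1, HDAC2, HDAC3 and HDAC8) are largely nuclear: HDAC1 and HDAC2 are the catalytic subunits of the SIN3, NuRD and CoREST complexes, HDAC3 is the catalytic subunit of the NCOR1 corepressor complex, and HDAC8 deacetylates the cohesin subunit SMC3. Class IIa enzymes (HDAC4, HDAC5, HDAC7 and HDAC9) bind MEF2 transcription factors and move between nucleus and cytoplasm when kinases phosphorylate them. In class IIb, HDAC6 is a mainly cytoplasmic deacetylase of tubulin, and HDAC10 is a polyamine deacetylase. Inhibitors of these enzymes are in use or under study in blood cancers, and the study asked how RNF5 and HDAC activity are linked in AML. The libraries report transcript levels only, not enzyme activity.

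The files list 8 of the 10 members above 0 in U937, 9 in HL-60 and all 10 in MOLM-13. HDAC4, on chromosome 2 (GRCh37, positions 239969864 to 240323348, minus strand), was listed at 0 in all 4 U937 libraries. HDAC9, on chromosome 7 (18126572 to 19042039, plus strand), was listed at 0 in all U937 and HL-60 libraries. HDAC6 lies on chromosome X (48659784 to 48683392, plus strand) and HDAC10 on chromosome 22 (50683612 to 50689834, minus strand). HDAC5 lies on chromosome 17 (42154114 to 42201070, minus strand). A gene at 0 in all libraries of a line had failed the authors' filter there, so a 0 is not a measured absence. Among the genes that were kept, the lowest values reached about 1 count per 1000000 normalized reads of the library (CPM) in as many libraries as the smallest group held (0.981 in HL-60, 0.985 in MOLM-13 and 0.999 in U937).

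The promoters of 4 members are printed because the results turn on them: HDAC6 and HDAC10, which fell together in U937, and HDAC4 and HDAC9, which were listed at 0 in at least 1 line. The sequences are from RefSeq (GRCh38.p14), 5′ to 3′ on the strand of the gene, for 1 start site per gene. They are chrX:48801817-48802116 (plus strand), chr22:50251216-50251515 (minus strand), chr2:239274732-239275031 (minus strand) and chr7:18495499-18495798 (plus strand), in that order. These positions are on another build than the gene positions above and cannot be set against them directly. Whether each window lies at the main start of its gene, or at the start used in these cells, was not tested. Capitals mark matches on either strand to the GC box (GGGCGG) or the CCAAT box (CCAAT), and adjoining GC boxes may share bases.
HDAC6: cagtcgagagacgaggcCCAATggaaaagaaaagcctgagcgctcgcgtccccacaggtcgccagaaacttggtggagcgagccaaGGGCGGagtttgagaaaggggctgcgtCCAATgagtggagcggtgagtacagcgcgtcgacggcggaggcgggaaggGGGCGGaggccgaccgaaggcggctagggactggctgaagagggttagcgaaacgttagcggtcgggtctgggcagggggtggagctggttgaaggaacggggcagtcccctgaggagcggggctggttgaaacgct
HDAC10: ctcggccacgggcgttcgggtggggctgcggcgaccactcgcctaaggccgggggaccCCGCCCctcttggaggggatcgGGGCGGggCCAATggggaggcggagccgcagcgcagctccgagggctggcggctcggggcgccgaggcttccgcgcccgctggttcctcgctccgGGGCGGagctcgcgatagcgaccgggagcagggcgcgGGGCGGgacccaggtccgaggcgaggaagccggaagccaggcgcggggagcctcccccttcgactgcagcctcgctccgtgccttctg
HDAC4: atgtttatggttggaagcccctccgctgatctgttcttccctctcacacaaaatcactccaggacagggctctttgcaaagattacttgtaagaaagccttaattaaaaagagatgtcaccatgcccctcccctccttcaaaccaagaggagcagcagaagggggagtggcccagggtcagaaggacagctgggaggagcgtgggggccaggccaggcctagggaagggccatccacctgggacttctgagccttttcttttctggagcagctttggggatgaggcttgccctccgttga
HDAC9: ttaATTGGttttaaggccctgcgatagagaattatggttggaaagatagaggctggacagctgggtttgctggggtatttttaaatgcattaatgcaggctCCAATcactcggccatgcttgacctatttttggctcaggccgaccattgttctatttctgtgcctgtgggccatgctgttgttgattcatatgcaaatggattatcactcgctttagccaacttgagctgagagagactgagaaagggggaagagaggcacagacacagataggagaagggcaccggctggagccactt

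The HDAC6 window held 2 GC boxes and 2 CCAAT boxes at a GC content of 64.3%, and the HDAC10 window held 4 and 1 at 77.0%. The HDAC9 window held no GC box and 2 CCAAT boxes at 47.3%, and the HDAC4 window held neither motif at 54.3%. Among the other members with an entry, HDAC1 held 6 GC boxes and 1 CCAAT box and HDAC3 held 3 GC boxes, whereas HDAC2, HDAC7 and HDAC8 held neither. For comparison, 45% of the 35116 RefSeq promoters of the same length held a GC box and 34.6% a CCAAT box. No member's window held TATAAA or CACGTG, which 11.5% and 7.26% of all promoters held. These matches describe the letters of 1 window per gene and say nothing of binding. HDAC5 is named only.

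The libraries held an estimated 9700000 to 63800000 counted reads each. In MOLM-13 both shRNF5 libraries (63800000 and 24400000) were deeper than every pLKO library (9700000 to 15300000), so depth went with construct there. RNF5 itself was lower in every shRNF5 library (37 to 133 normalized reads) than in every pLKO library (506 to 1223), and its log2 fold change was −3.25 in HL-60, −3.64 in U937 and −3.77 in MOLM-13. All 6 myeloid markers checked (SPI1, CD33, PTPRC, LYZ, MPO and CEBPA) were above 0 in each line, and HOXA9 and MEIS1 were listed at 0 in HL-60. Of 6 markers of T, B, erythroid, epithelial and stromal cells, 5 were at 0 in HL-60, 4 in U937 and all 6 in MOLM-13. In U937, CD79A and COL1A1 were above 0, and the summed level of the 6 markers was 7.62 to 14.99 CPM in the pLKO libraries and 2.23 to 3.77 in the shRNF5 libraries. In HL-60 the sum was 1.38 to 2.09 CPM with pLKO and 2.31 to 2.7 with shRNF5, all of it CD79A.

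In the pLKO libraries of MOLM-13 and HL-60, HDAC2 and HDAC1 carried most of the normalized reads of the family. This did not hold in U937 pLKO replicate 2, where HDAC6 (198 CPM) lay between HDAC2 (223 CPM) and HDAC1 (194 CPM). Levels were compared between lines in CPM, because the authors had scaled each line separately. HDAC2 stood at 430 ± 12.9 CPM in MOLM-13 (SD, n = 3), 247 ± 33.3 in U937 (n = 2) and 381 ± 32.5 in HL-60 (n = 3). HDAC1 stood at 161 ± 9.49, 182 ± 17.1 and 184 ± 12.8 CPM in the same lines, and its range over the line means (0.19 on the log2 scale) was the narrowest of the 8 members above 0 in all lines. HDAC9 was above 0 in MOLM-13 only, where it stood at 60.4 ± 12.5 CPM. Its range (9.22) and that of HDAC4 (9.15) rest on zeros from the filter, taken as 0.1 CPM, and cannot be ranked.

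**Figure D1:**
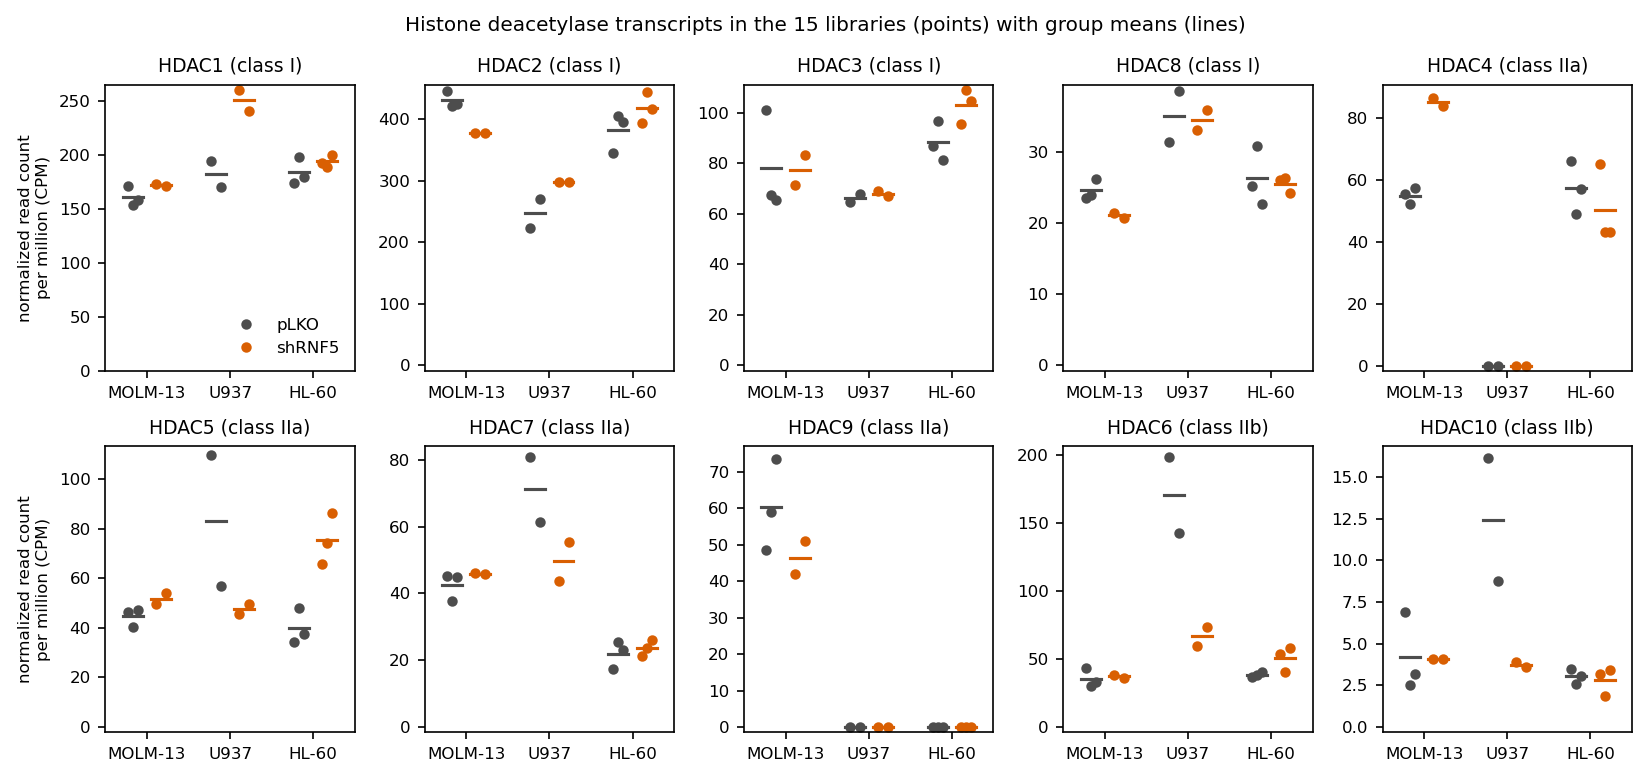
Levels of the 10 members in each of the 15 libraries, in CPM (y axis, from 0), by line (x axis). Grey points are pLKO and orange points shRNF5 libraries, and short lines are group means. HDAC6 and HDAC10 are highest in the U937 pLKO libraries, HDAC4 is listed at 0 in U937, and HDAC9 is above 0 only in MOLM-13.

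U937 pLKO cells stood apart by their class IIb enzymes. HDAC6 was at 142 and 198 CPM in the U937 pLKO libraries, against 29.9 to 43.6 in MOLM-13 and 36.5 to 40.4 in HL-60. HDAC10 was at 8.74 and 16.1 CPM in U937, 2.55 to 6.93 in MOLM-13 and 2.56 to 3.5 in HL-60. For both genes every U937 pLKO library was above every pLKO library of the other lines. HDAC6 was higher in U937 than in MOLM-13 by a log2 difference of 2.26 (the fitted difference of MOLM-13 against U937 was −2.26 ± 0.21 SE, limma adjusted p = 5.01e-06) and higher than in HL-60 by 2.13 ± 0.21 (limma adjusted p = 4.23e-06). HDAC10 was higher in U937 than in HL-60 by 1.94 ± 0.42 (limma adjusted p = 0.00173), and its difference of MOLM-13 against U937 was −1.61 ± 0.42 (limma adjusted p = 0.00709). The neighbouring gene MAPK12, whose exons cover 55.8% of the HDAC10 exon bases on the same strand, was also highest in U937. It was at 144.77 and 198.29 CPM in the U937 pLKO libraries, 33.85 to 60.42 in MOLM-13 and 39.75 to 43.25 in HL-60. The part of MAPK12 reads in the HDAC10 levels was not tested.

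Between lines, a member was called when its limma adjusted p was under 0.1 and its log2 difference over 0.4 in size. MOLM-13 against U937 gave 6 calls among the 8 members above 0 in all 3 lines, where 59.2% of the 11072 genes tested were called, and U937 against HL-60 gave 7 of 8, where 66.1% were. MOLM-13 against HL-60 gave 1 of 8, where 52.1% were called. Most genes differed between lines by this rule, and the counts of members are to be read against those shares. The 1 member called between MOLM-13 and HL-60 was HDAC7, a class IIa enzyme known from T-cell and endothelial biology, at 37.7 to 45.2 CPM in MOLM-13 and 17.3 to 25.4 in HL-60 (log2 difference 0.97 ± 0.20, limma adjusted p = 0.00151). HDAC4 could be compared only between MOLM-13 (52.1 to 57.2 CPM) and HL-60 (48.8 to 66.1 CPM), in a fit to those lines alone that was chosen after the data were seen. There its difference was −0.05, with an interval from −0.38 to 0.28 (limma adjusted p = 0.791), where 55.1% of genes were called.

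HDAC2 was lower in U937 than in both other lines, by log2 differences of 0.81 ± 0.16 for MOLM-13 against U937 (limma adjusted p = 0.00124) and −0.63 ± 0.16 for U937 against HL-60 (limma adjusted p = 0.00477). HDAC5 and HDAC7 were higher in U937, with differences against HL-60 of 0.99 ± 0.26 and 1.70 ± 0.22 and differences of MOLM-13 against U937 of −0.82 ± 0.26 and −0.73 ± 0.22. Without U937 pLKO replicate 2, the calls of HDAC5 and HDAC7 between MOLM-13 and U937 were lost, at −0.35 and −0.53. The median of all genes in U937 against HL-60 was 0.11, and rescaling the libraries by the median of ratios moved it to −0.004. Relative to that shift the differences of HDAC6, HDAC7 and HDAC10 in U937 against HL-60 were 2.02, 1.58 and 1.83, all still called. HDAC8 (0.42) and HDAC3 (−0.41), both at an adjusted p of 0.0997 by limma, stood at the threshold. HDAC8 was no longer called after rescaling (0.30). HDAC3 was called at −0.53 after rescaling, but it was lost in each of 5 fits without a library (−0.35 to −0.47) and in the fit with a replicate block (−0.32, limma adjusted p = 0.267). HDAC8 was also called in MOLM-13 against U937 (−0.50, limma adjusted p = 0.0591), and this call was lost after rescaling (−0.40, limma adjusted p = 0.115).

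Comparing members with each other requires their length, and read counts were divided by the length of the reference (MANE Select) transcript, from 1.75 kb for HDAC8 to 9.88 kb for HDAC9. This holds for a kit that reads whole transcripts and not for one that reads 3′ ends, and the sources name both. Per kb, HDAC1 led in all 6 groups. In pLKO libraries it stood at 72.2 to 80.9 CPM per kb in MOLM-13, 80.1 to 91.5 in U937 and 82.0 to 93.5 in HL-60. In MOLM-13, HDAC2 (43.3 to 45.7) and HDAC3 (33.9 to 52.4) followed with overlapping values, then HDAC8 (13.4 to 14.98). In U937, HDAC6 came second (34.5 to 48.0) with values that overlapped those of HDAC3 (33.4 to 35.1), ahead of HDAC2 (22.9 to 27.8). In HL-60, HDAC3 (42.2 to 50.2) was above HDAC2 (35.3 to 41.6), and the neighbours HDAC6, HDAC5, HDAC4 and HDAC7 overlapped each in turn. HDAC10 was last among the members above 0 in all 3 lines.

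**Figure D2:**
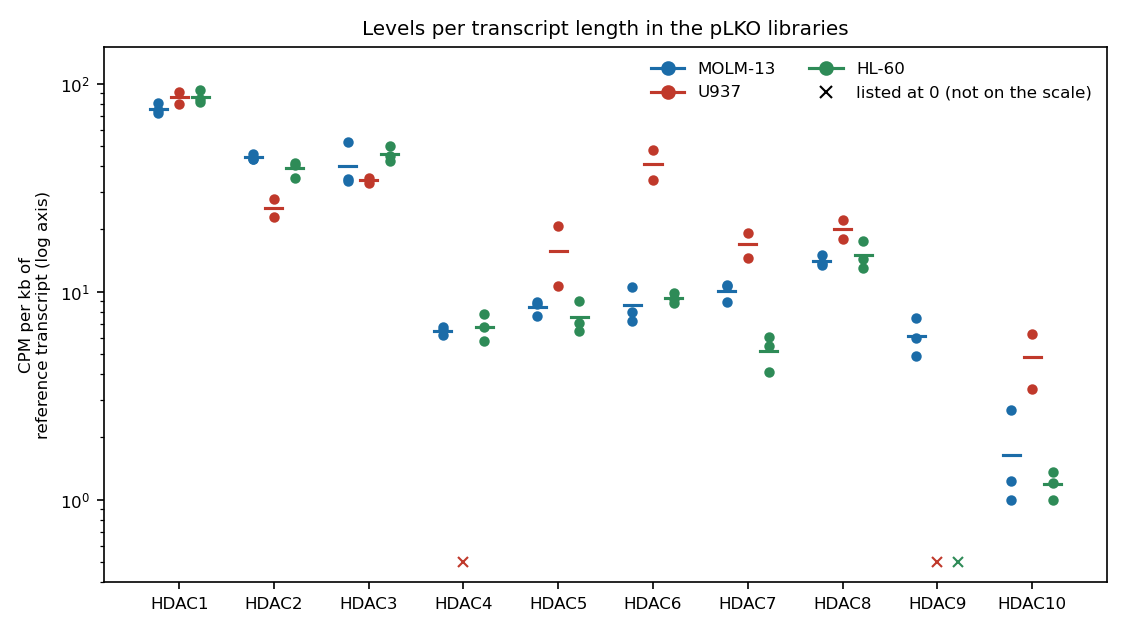
Level of each member in the pLKO libraries, in CPM per kb of reference transcript (y axis, log scale), by line. Points are libraries, short lines are means, and crosses mark members listed at 0, which have no place on a log axis. HDAC1 is highest in each line, and HDAC6 of U937 lies beside HDAC3 rather than beside HDAC5 and HDAC7.

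Without regard to length, HDAC2 held 40.7% to 47.5% of the family's summed normalized reads in every MOLM-13 and HL-60 library and 24.3% to 36.6% in the U937 libraries. Class IIb held 23.3% and 18.5% of the family's reads in the U937 pLKO libraries, 7.8% and 9.3% in the U937 shRNF5 libraries, and 3.7% to 6.4% in all MOLM-13 and HL-60 libraries. Class I held 55.9% and 67.0% of the reads in U937 pLKO and 81.2% and 77.9% in U937 shRNF5. The family's sum was 816 and 918 CPM in U937 pLKO and 812 and 823 in U937 shRNF5, so the shares moved more than the total did. Shares of a sum are not independent of each other, and no test was run on them. In MOLM-13 the ratio of HDAC1 to HDAC2 reads was 0.36 to 0.39 with pLKO and 0.45 and 0.46 with shRNF5.

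The effect of RNF5 knockdown was then tested in each line by limma on log2(normalized read count + 1), with calls at an adjusted p under 0.1 and a log2 fold change over 0.4 in size. In MOLM-13, 1 of 10 members was called, where 2.04% of the 13026 genes tested were called. In U937, 2 of 8 members were called, where 15.7% of 13165 genes were, and in HL-60, 2 of 9, where 25.9% of 12570 were. The calls were HDAC4 up in MOLM-13, HDAC6 and HDAC10 down in U937, and HDAC5 and HDAC6 up in HL-60. By direction, 1.03% of genes rose and 1.01% fell in MOLM-13, 6.92% rose and 8.74% fell in U937, and 13.6% rose and 12.3% fell in HL-60. The members' median log2 fold change was 0.15 in HL-60, −0.22 in U937 and 0.07 in MOLM-13, against 0.002, 0.004 and 0.007 over all genes. No member was called in all 3 lines.

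**Figure D3:**
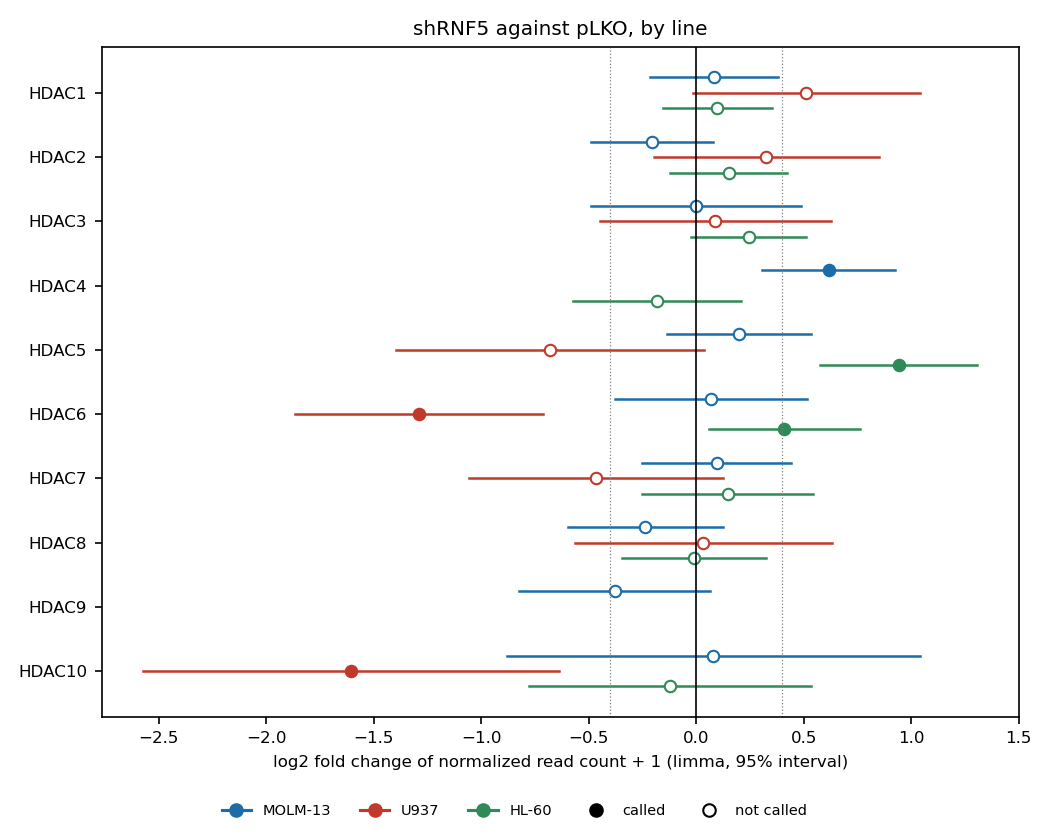
Log2 fold change of each member with shRNF5 against pLKO (x axis), on the scale of normalized read count + 1, in MOLM-13 (blue), U937 (red) and HL-60 (green). Points are limma estimates, lines are 95% intervals, filled points were called, and dotted lines mark 0.4 in either direction. The 5 filled points are class IIa or IIb members, and every class I point is open.

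No class I enzyme was called in any line. HDAC1, the catalytic subunit shared by the SIN3, NuRD and CoREST complexes, had 4377, 3956 and 3930 normalized reads with pLKO and 4394 and 4257 with shRNF5 in MOLM-13. In HL-60 it had 2778, 3248 and 2910 with pLKO and 3140, 3039 and 3378 with shRNF5, and the groups overlapped in both lines. In U937 it had 3197 and 2720 with pLKO and 4539 and 3896 with shRNF5, so that both shRNF5 libraries were higher, by a log2 fold change of 0.51 ± 0.24 (limma adjusted p = 0.198). A fit over all 15 libraries, which pools the spread of the 3 lines, called this difference (limma adjusted p = 0.0194). The intervals of the HDAC1 fold change were −0.16 to 0.35 in HL-60, −0.02 to 1.04 in U937 and −0.21 to 0.38 in MOLM-13.

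HDAC2, the closest relative of HDAC1, had 11360, 10882 and 10562 normalized reads with pLKO and 9578 and 9361 with shRNF5 in MOLM-13. Both shRNF5 libraries lay below the 3 pLKO libraries, with a log2 fold change of −0.21 ± 0.12 (limma adjusted p = 0.418). In U937 it had 3679 and 4332 with pLKO and 5200 and 4815 with shRNF5, with no overlap, at 0.33 ± 0.24 (limma adjusted p = 0.396). In HL-60 the groups overlapped, at 5504 to 6637 with pLKO and 6405 to 7138 with shRNF5. Groups did not overlap for 38.5% of genes in HL-60, 59.2% in U937 and 38.7% in MOLM-13, so the separation of so few libraries is common.

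HDAC3, of the NCOR1 corepressor complex, overlapped between groups in all 3 lines. It had 1627 to 2582 normalized reads with pLKO and 1817 and 2067 with shRNF5 in MOLM-13, and the highest value came from pLKO replicate 1. In HL-60 it had 1387, 1587 and 1325 with pLKO and 1561, 1756 and 1767 with shRNF5 (log2 fold change 0.24 ± 0.12, limma adjusted p = 0.18). HDAC8, the cohesin deacetylase, had 600 to 653 with pLKO and 544 and 514 with shRNF5 in MOLM-13, without overlap, at −0.24 ± 0.16 (limma adjusted p = 0.465). Its groups overlapped in U937 (517 and 617 against 577 and 579) and in HL-60 (369 to 505 against 408 to 425). The intervals of the class I log2 fold changes had their lowest bound at −0.60 (HDAC8, MOLM-13) and their highest at 1.04 (HDAC1, U937).

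Among the class IIa enzymes, HDAC4 was called in MOLM-13 and HDAC5 in HL-60. HDAC4, a MEF2 corepressor, had 1411, 1345 and 1424 normalized reads with pLKO in MOLM-13 and 2192 and 2082 with shRNF5. Both shRNF5 libraries lay well above the narrow pLKO range, and the means differed 1.53-fold (log2 fold change 0.62 ± 0.13, interval 0.31 to 0.93, limma adjusted p = 0.0933). The MOLM-13 shRNF5 libraries were also deeper than the pLKO libraries, and the part of read depth was not tested. Of the 3 fits that left out a pLKO library, the call held in 1, the fit without pLKO replicate 1. Without pLKO replicate 2 or 3 the fold change was 0.59 or 0.63 and the limma adjusted p 0.223 or 0.116. Without shRNF5 replicate 1 or 2, which leaves 1 library in that group, it was 0.58 or 0.65 (limma adjusted p = 0.715 or 0.656). In HL-60 HDAC4 had 1056, 800 and 925 with pLKO and 1059, 693 and 726 with shRNF5, and the groups overlapped (−0.18 ± 0.18, limma adjusted p = 0.491).

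HDAC5, which also binds MEF2 factors, rose in HL-60, from 551, 790 and 609 normalized reads with pLKO to 1075, 1200 and 1458 with shRNF5. Every shRNF5 library was above every pLKO library, and the means differed 1.91-fold (log2 fold change 0.94 ± 0.17, interval 0.58 to 1.31, limma adjusted p = 0.00526). The call held in all 6 fits that left out a library, from 0.82 to 1.09. The summed level of the 6 myeloid markers, most of it MPO, was also higher in the HL-60 shRNF5 libraries (9332 to 13245 CPM) than with pLKO (7007 to 8450), and its part was not tested. In U937 HDAC5 had 1808 and 909 with pLKO and 797 and 803 with shRNF5. Both shRNF5 libraries lay below the pLKO libraries, which themselves differed 1.99-fold, and the fold change of −0.68 ± 0.32 was not called (limma adjusted p = 0.204). It was −0.18 without pLKO replicate 2, and −1.18 and called without pLKO replicate 3 (limma adjusted p = 0.0647). In MOLM-13 it had 1046 to 1184 with pLKO and 1263 and 1341 with shRNF5 (0.20 ± 0.15, limma adjusted p = 0.514).

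In the reference annotation on GRCh37, 24% of the HDAC5 exon bases also lie under exons of G6PC3 on the opposite strand, and the strand setting of the authors' counting is not stated. G6PC3, a glucose-6-phosphatase subunit, had 500, 610 and 464 normalized reads with pLKO in HL-60 and 415, 503 and 420 with shRNF5, and 2 of its 3 shRNF5 libraries were below all pLKO libraries (log2 fold change −0.23 ± 0.15, limma adjusted p = 0.309).

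HDAC7 had 277, 417 and 374 normalized reads with pLKO in HL-60 and 346, 383 and 442 with shRNF5, with overlap. In U937 it had 1333 and 981 with pLKO and 765 and 896 with shRNF5, lower in both shRNF5 libraries at −0.47 ± 0.27 (limma adjusted p = 0.287). In MOLM-13 its groups overlapped, at 975 to 1155 with pLKO and 1137 and 1170 with shRNF5. HDAC9 had 1239, 1526 and 1829 with pLKO in MOLM-13 and 1066 and 1266 with shRNF5, which overlapped (−0.38 ± 0.19, limma adjusted p = 0.352). HDAC9 had the largest range by the 0.1 CPM convention, a choice that its zeros decide, and the genes whose levels over the 15 libraries were most like it were RXFP1, NEFH and GPX7 (Pearson r 0.9999, 0.9999 and 0.9998 on log2(level + 0.1)). All 3 were, like HDAC9, listed at 0 in U937 and HL-60 and above 0 in MOLM-13, a pattern that 685 genes share, so these coefficients describe the line more than the libraries within it.

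The class IIb enzymes fell in U937. HDAC6, the tubulin deacetylase, had 3260 and 2279 normalized reads in the U937 pLKO libraries and 1046 and 1186 in the shRNF5 libraries. The shRNF5 libraries, at 59.8 and 73.3 CPM, were below both pLKO libraries yet above every MOLM-13 and HL-60 library (at most 58.2), and the means differed by a factor of 0.403 (log2 fold change −1.29 ± 0.26, interval −1.87 to −0.71, limma adjusted p = 0.0252). HDAC10 had 266 and 140 with pLKO and 68 and 58 with shRNF5, with no overlap and a factor of 0.31 (−1.60 ± 0.44, interval −2.57 to −0.64, limma adjusted p = 0.0544). In a bulk library, fewer cells with a transcript and less transcript per cell cannot be told apart. The HDAC10 values rest on an estimated 51 to 226 counted reads per library, far fewer than the 1032 to 2922 for HDAC6.

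Leaving out any U937 library leaves 1 library in a group, which is then assumed to vary like the others, so a lost call says little about stability. The fold changes kept their sign in the 4 fits. Neither gene was called without pLKO replicate 2, at −1.03 for HDAC6 and −1.14 for HDAC10, without shRNF5 replicate 1, at −1.20 and −1.72, and without shRNF5 replicate 3, at −1.38 and −1.49. Without pLKO replicate 3 they were −1.55 and −2.07 and both were called. The 2 U937 pLKO libraries differed from each other 1.43-fold in HDAC6 and 1.9-fold in HDAC10, against a median of 1.29-fold over all genes. Replicate 2 was the higher for HDAC1, HDAC5, HDAC6, HDAC7 and HDAC10 and the lower for HDAC2, HDAC3 and HDAC8. The summed level of the other-cell-type markers was also lower in both U937 shRNF5 libraries, as given above. The summed level of HOXA9, MEIS1 and FLT3, genes expressed in many leukemias, was 654 to 769 CPM with pLKO and 239 to 380 with shRNF5 in U937. The part of these markers in the results was not tested.

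**Figure D4:**
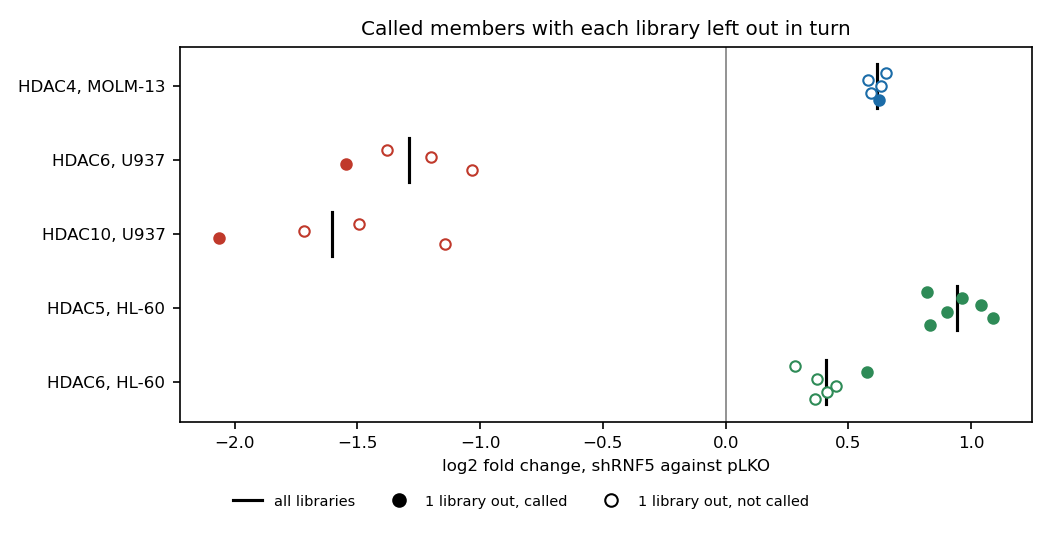
Log2 fold change with shRNF5 against pLKO (x axis) for the 5 called members, in fits that each left out 1 library. Black bars mark the value with all libraries, filled points fits in which the member was still called and open points fits in which it was not. All points for HDAC5 in HL-60 are filled, and 1 point is filled for each of the others.

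HDAC10 shares much of its sequence with a neighbour. In the annotation used here, 55.8% of its exon bases lie under exons of MAPK12, a kinase gene on the same strand, so reads of the pair cannot be separated by strand. MAPK12 had 3267 and 2319 normalized reads with pLKO in U937 and 1084 and 1306 with shRNF5, and it fell as well (log2 fold change −1.21 ± 0.26, limma adjusted p = 0.0303). In MOLM-13 MAPK12 had 843 to 1543 with pLKO and 794 and 712 with shRNF5, and in HL-60 646 to 709 and 543 to 596, neither called. The annotation the authors counted on is not given in the sources used here, and the part of MAPK12 reads in the HDAC10 values was not tested. HDAC10 values are therefore uncertain. The pseudogenes HDAC1P1 and HDAC1P2 were listed at 0 in all libraries.

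In HL-60, HDAC6 had 583, 622 and 656 normalized reads with pLKO and 870, 653 and 983 with shRNF5. shRNF5 replicate 2 lay within the pLKO range, so the groups overlapped although the member was called (log2 fold change 0.41 ± 0.16, interval 0.06 to 0.76, limma adjusted p = 0.0944). The fold change was barely over the threshold of 0.4, and the call was lost in the 5 fits without pLKO replicate 1, 2 or 3 or without shRNF5 replicate 1 or 3, at 0.28 to 0.45. It held without shRNF5 replicate 2, at 0.58. HDAC10 in HL-60 had only 30 to 58 normalized reads in the 6 libraries, and its groups overlapped. In MOLM-13 HDAC6 had 772 to 1113 with pLKO and 975 and 889 with shRNF5, and HDAC10 66 to 177 and 104 and 102, again with overlap.

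Whether the lines responded differently was tested as the difference of their log2 fold changes in a fit over all 15 libraries, called at an adjusted p under 0.1. U937 differed from HL-60 in 3 of 8 members, where 37.2% of 11072 genes did. The differences were −1.70 ± 0.29 for HDAC6 (limma adjusted p = 0.00131), −1.62 ± 0.33 for HDAC5 (limma adjusted p = 0.00321) and −1.48 ± 0.57 for HDAC10 (limma adjusted p = 0.0643). HDAC5 and HDAC6 were lower with shRNF5 in U937 and higher in HL-60, and these differences remained past the threshold in all 10 fits that left out a library of either line. The HDAC10 difference was kept in 4 of the 10 (a fit without a U937 library again leaves 1 in a group). It was lost without any of U937 pLKO replicate 2, U937 shRNF5 replicate 1 or 3, HL-60 pLKO replicate 2 and HL-60 shRNF5 replicate 1 or 3, at −1.02 to −1.60.

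MOLM-13 differed from U937 in 2 of 8 members, where 15.4% of genes did. They were HDAC6, by 1.36 ± 0.31 (limma adjusted p = 0.0211), and HDAC10, by 1.68 ± 0.60 (limma adjusted p = 0.0922). The HDAC6 difference held in 8 of 9 fits that left out a library and was 1.27 without U937 shRNF5 replicate 1 (limma adjusted p = 0.128). The HDAC10 difference held in 2 of 9, those without MOLM-13 pLKO replicate 1 (2.11) or U937 pLKO replicate 3 (2.14), and without any 1 of the others it was 1.22 to 1.80 and past the threshold no longer. These comparisons share the U937 libraries with the ones above. For MOLM-13 against HL-60, 0 of 8 members passed in limma, where 8.82% of genes passed. At an unadjusted p under 0.05, 1 member passed, HDAC5 (−0.74 ± 0.31, limma adjusted p = 0.178).

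HDAC4 could not enter that fit because it was listed at 0 in U937. In a fit to MOLM-13 and HL-60 alone, chosen after the data were seen, 15.1% of 11618 genes passed. HDAC4 differed by 0.80 ± 0.24 (limma adjusted p = 0.0615) and HDAC5 by −0.74 ± 0.23 (limma adjusted p = 0.0677). The class IIa calls were HDAC4 in MOLM-13 and HDAC5 in HL-60. HDAC5 was also higher in both MOLM-13 shRNF5 libraries than in every pLKO library there (1.15-fold in the means). In the fit over all libraries its difference between the 2 lines was not called (limma adjusted p = 0.178). For class I, the intervals of the differences between MOLM-13 and HL-60 in the fit over all libraries included −0.40 to 0.37 for HDAC1 and −0.74 to 0.03 for HDAC2. No class I difference passed the threshold.

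**Figure D5:**
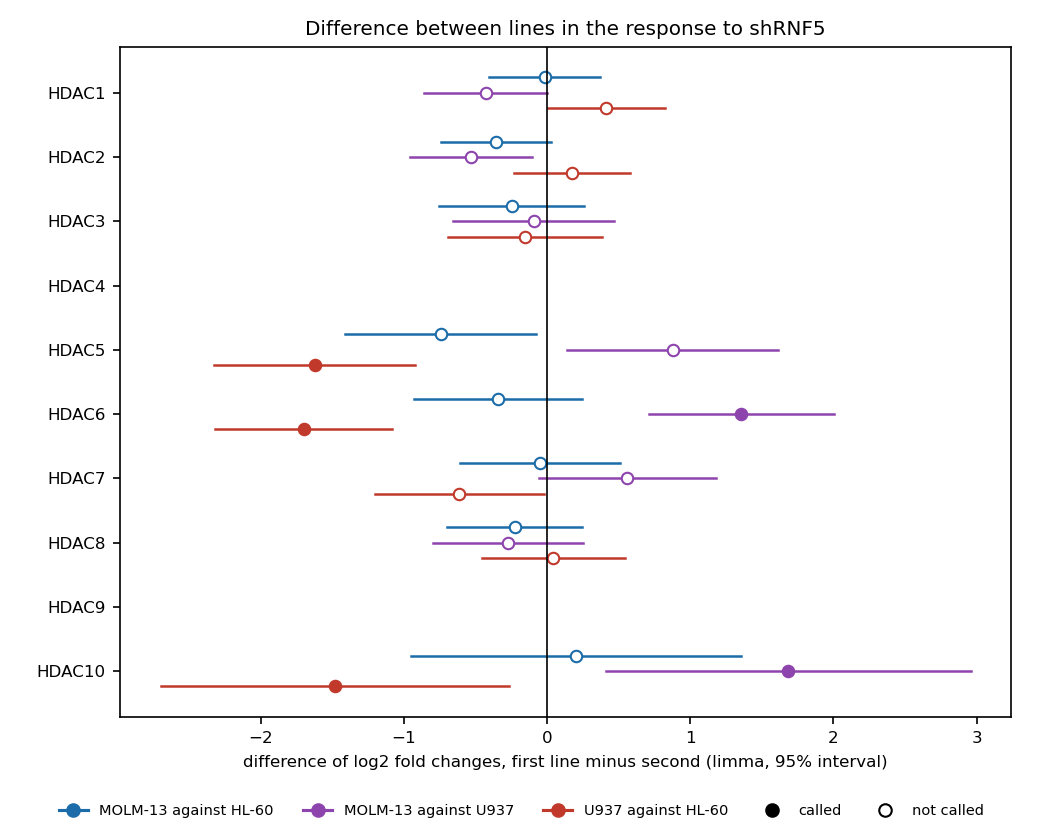
Difference between lines in the log2 fold change with shRNF5 (x axis, first line named minus the second), from a fit over 15 libraries. Points are limma estimates, lines are 95% intervals, and filled points passed an adjusted p of 0.1. HDAC4 and HDAC9 have no points because they were listed at 0 in at least 1 line. The filled points belong to HDAC5, HDAC6 and HDAC10, and each involves U937.

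Genes that work with the family were described from 8 lists, and their calls are to be read against the 2.04%, 15.7% and 25.9% of all genes called in MOLM-13, U937 and HL-60. Of 23 partners of HDAC1 and HDAC2 in the SIN3, NuRD and CoREST complexes, 1 fell in MOLM-13, 1 rose and 1 fell in U937, and 1 rose and 4 fell in HL-60. These were 4.35%, 8.7% and 21.7% of the list, below the share of all genes in U937 and HL-60. SAP18, a SIN3-associated subunit, fell in each line, from 4009 to 4517 normalized reads to 1737 and 1887 in MOLM-13, from 1343 and 1675 to 721 and 768 in U937, and from 2009 to 2358 to 845 to 1451 in HL-60 (log2 fold changes −1.24 ± 0.13, −1.01 ± 0.25 and −0.95 ± 0.18). SAP130, another SIN3 subunit, rose in U937 (0.91 ± 0.26) and fell in HL-60 (−0.55 ± 0.17). MBD3, the methyl-binding-domain subunit of NuRD, rose in HL-60 (0.48 ± 0.17). Of 4 subunits of the HDAC3 corepressor, TBL1X fell in HL-60 (−0.54 ± 0.17), and none was called in the other lines.

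Of the partners and kinases of class IIa enzymes, 9 to 10 of 12 were tested in each line. The kinase gene SIK1 rose in U937 (1.29 ± 0.42) and fell in HL-60 (−0.68 ± 0.25), and CAMK2D and CAMK2G fell in U937 (−1.06 ± 0.32 and −1.02 ± 0.29). None was called in MOLM-13, and 2 fell in HL-60. The calls made up 33.3% of those tested in U937 and 22.2% in HL-60, against 15.7% and 25.9% of all genes. Of 7 genes for HDAC6 substrates and the tubulin acetyltransferase, TUBA1A (an alpha tubulin) fell in U937 (−1.15 ± 0.32), and CTTN (cortactin, −1.08 ± 0.36) and ATAT1 (the acetyltransferase, −0.58 ± 0.21) fell in HL-60. Of 12 cohesin genes, ESCO2, which acetylates SMC3, rose in U937 (1.56 ± 0.31) with STAG1 (0.94 ± 0.31), and SMC1A fell in HL-60 (−0.41 ± 0.15). The called share of those tested in U937 and HL-60 was 16.7% and 28.6% for the HDAC6 list and 16.7% and 8.33% for the cohesin list.

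Among the 10 acetyltransferases, which oppose the deacetylases, 1 rose and 2 fell in both U937 and HL-60 and none was called in MOLM-13. That was 30.0% of the list in each, against 15.7% and 25.9% of all genes. EP300 rose in U937 (1.15 ± 0.26) and fell in HL-60 (−0.66 ± 0.20), and KAT2A (−1.03 ± 0.24) and KAT8 (−0.81 ± 0.25) fell in U937. Of the other deacetylases, SIRT5 fell in U937 (−0.89 ± 0.31), and SIRT3 (0.61 ± 0.21) and SIRT7 (0.52 ± 0.17) rose in HL-60. These calls were 14.3% of the other deacetylases tested in U937 and 33.3% in HL-60. These 3 sirtuins are, as background, a mitochondrial desuccinylase, the main mitochondrial deacetylase and a nucleolar deacetylase. HDAC11, the class IV enzyme, was above 0 in U937 only and was not called there (−0.65 ± 0.43). The BET readers BRD2 and BRD3 were not called in any line.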

How the data were processed

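Per the labels and the study's methods, the authors mapped to hg19 (STAR), counted reads by gene (featureCounts) and normalized the counts of each line (edgeR in SARTools). Each value is thus a score, made when the authors multiplied a count by its library's factor and rounded the product to a whole number. Genes that failed their filter are listed at 0. The annotation and the strand setting of the counting are not given in the sources used here. The step between neighbouring values gave each library's factor and, from it, 9700000 to 63800000 counted reads, so values of low members such as HDAC10 are least precise. This estimate recovered simulated factors to within 0.03%, and the mean inverse factor of each line was 1, as scaling to the mean library size gives. A coarser search of the factors had missed the best value in some libraries and was dropped. Since the values are not counts, no count test was run and no counting interval is given.

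Genes above 0 in any library of a line were tested with limma 3.58.1 in R 4.3.3 on log2(value + 1), with a mean-variance trend and Benjamini-Hochberg adjustment over all genes tested. Fold changes on this scale understate the changes of low genes. Differences between lines used 1 fit over 15 libraries, and pLKO levels used log2(CPM + 0.1). With 200 simulated changed genes, 91%, 81% and 81% of those changed 2-fold (1 on the log2 scale) were recovered in HL-60, U937 and MOLM-13, and 10.3%, 6.3% and 4.8% of calls were false. In a simulated difference between the responses of MOLM-13 and U937, 56% of such genes were recovered. The simulations gave every gene the same preset spread between libraries beyond counting noise, so these rates may not hold for the real libraries. No 2 libraries held the same values.

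Positions, lengths and overlaps came from GENCODE annotation lifted to GRCh37 (the build of hg19), and promoters from RefSeq. The members and gene lists were chosen with earlier results of these data known. Some genes of the lists are not reported here, and the counts leave them out. Named genes are RNF5, the 10 members, up to 3 called genes per list with the largest fold changes and the 3 genes most like the member with the widest range between lines, and their overlapping neighbours were added after values were seen. Alternatives covered pseudocounts, low-value filters, scaling, variance models, thresholds, replicate blocks and leaving out each library.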

Additional observations from a re-analysis of the deposited data

Results flagged for a closer look

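The knockdown response of 4 members differed between lines by a test of the difference itself. Each value is the log2 fold change of the first line minus that of the second, with limma's adjusted p. The count is to be read against the share of all genes that differed. It was 37.2% for U937 against HL-60, 15.4% for MOLM-13 against U937 and 15.1% in the fit to MOLM-13 and HL-60 alone. HDAC6 differed by −1.70 between U937 and HL-60 (limma adjusted p = 0.00131) and by 1.36 between MOLM-13 and U937 (limma adjusted p = 0.0211). HDAC5 differed by −1.62 between U937 and HL-60 (limma adjusted p = 0.00321). HDAC10 differed by 1.68 between MOLM-13 and U937 (limma adjusted p = 0.0922) and by −1.48 between U937 and HL-60 (limma adjusted p = 0.0643). The HDAC10 differences did not hold in all fits that left out a library, as given above. In the fit to MOLM-13 and HL-60 alone, chosen after the data were seen, HDAC4 differed by 0.80 (limma adjusted p = 0.0615) and HDAC5 by −0.74 (limma adjusted p = 0.0677). With 2 or 3 libraries in each group, single outlying libraries were not tested.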

How the results depend on the processing

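With a pseudocount of 10, a mean value of at least 50 or median-of-ratios rescaling, each count of called members stayed within 1.5 times its value. Without the mean-variance trend the knockdown calls of MOLM-13, U937 and HL-60 were 0, 0 and 1. In 1 fit over all libraries they were 0, 4 and 1. That fit held only genes above 0 in all 3 lines, so HDAC4, the member called in MOLM-13, was not tested in it. At an adjusted p under 0.05 the calls were 0, 1 and 1, with 1 response difference left between MOLM-13 and U937. In the fit to MOLM-13 and HL-60 alone, added after the data were seen, 2 response differences passed in place of 0. Leaving out each library in turn gave 1 to 2 calls in HL-60, 0 to 3 in U937 and 0 to 1 in MOLM-13. It gave 0 to 5 response differences for MOLM-13 against U937 (5 without U937 pLKO replicate 3), 2 to 4 for U937 against HL-60, and 1 to 2 differences in pLKO level for MOLM-13 against HL-60.

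By the numbers in the labels, same-numbered pLKO and shRNF5 libraries correlated at −0.133 and −0.447 in MOLM-13. The values were 0.255 in U937 (1 pair) and 0.386, 0.12 and −0.047 in HL-60. Another numbering of the MOLM-13 shRNF5 libraries gives them 2 and 3 in place of 1 and 2. By that numbering the MOLM-13 values were 0.447 and 0.266. In a group of 2 libraries the values mirror each other in sign, so they cannot settle whether the numbers pair libraries. The main fits used no pairing. With the replicate number as a block, knockdown calls were 0 in MOLM-13 and 2 in HL-60, and the response differences were 1 for MOLM-13 against HL-60, 0 for MOLM-13 against U937 and 2 for U937 against HL-60. HDAC10 in MOLM-13 (−0.0705) and the HDAC8 response difference of U937 against HL-60 (−0.0802) changed sign under the block, neither called. In U937 alone the block could not be fitted, because its groups share 1 replicate number only.

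Signs that changed when a library was left out belonged to uncalled values only. The log2 fold changes ranged from −0.20 to 0.51 for HDAC10, −0.13 to 0.20 for HDAC3 and −0.0345 to 0.23 for HDAC6 in MOLM-13, from −0.094 to 0.16 for HDAC8 in U937, and from −0.30 to 0.16 for HDAC10, −0.0241 to 0.27 for HDAC7 and −0.11 to 0.12 for HDAC8 in HL-60. The response differences ranged from −0.0794 to 0.0348 for HDAC1, −0.0823 to 0.63 for HDAC10 and −0.17 to 0.12 for HDAC7 in MOLM-13 against HL-60, from −0.22 to 0.11 for HDAC3 in MOLM-13 against U937, and from −0.0848 to 0.17 for HDAC8 in U937 against HL-60. The pLKO level differences ranged from −0.0836 to 0.62 for HDAC10 and −0.18 to 0.036 for HDAC8 in MOLM-13 against HL-60, and from −0.11 to 0.0817 for HDAC1 in U937 against HL-60.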
